A study of Homo sapiens with 6 samples.

Results

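The ATP-binding cassette (ABC) transporter family was described in renal cancer cells with and without YB1. Its members were taken as every gene of the expression table whose symbol is ABC, a subfamily letter from A to G and a number, which gave 45 genes of the 20030 listed. Subfamily A had 12 members, B had 9, C had 11, D had 4, E had 1, F had 3 and G had 5. Of the 45, 41 carried the KEGG ABC transporter pathway in the table, and the 4 without it were ABCE1 and ABCF1 to ABCF3.

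ABC proteins bind and hydrolyse ATP through a conserved pair of nucleotide-binding domains, and most of them use that energy to move a substrate across a membrane. Most members of subfamily A move lipids, and most of D import fatty acids into peroxisomes. B and C hold the classical drug efflux pumps and several organelle transporters, and G holds sterol exporters and a drug pump. Members of E and F have the ATP-binding domains but no membrane-spanning part, and act on ribosomes. In the kidney, tubule cells use ABC pumps to secrete drugs and organic anions, and ABCB1 (P-glycoprotein, also called MDR1) is known for pumping chemotherapeutic drugs out of renal carcinoma cells. YB1, the product of YBX1, is a cold-shock domain protein that binds RNA and DNA. It was named for binding the Y-box, an inverted CCAAT sequence, and ABCB1 is a well-known gene with such a box in its promoter.

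The cells were 786-O, an established line that came from a clear cell renal cell carcinoma (ccRCC) and lacks functional VHL. The shYB1 group was infected with lentivirus carrying a small hairpin RNA (shRNA) against YB1, and the vector group carried a scrambled shRNA. Both groups were selected with puromycin and were labelled as passages 16 to 18. Each group had 3 libraries, and no label says whether they came from separate infections, so p-values measure only the spread between these libraries. The submitters' design text speaks of several independent shRNAs, whereas the labels give a single shYB1 group. The study describes the knockdown as stable. Whether the shYB1 libraries shared a hairpin or came from a single stable line is unknown.

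Expression was given as FPKM (fragments per kilobase of transcript, scaled to the mapped fragments of the library), which sets genes of unequal length on a common scale. No fragment counts were used here, so the depth was unknown. A rough estimate of depth relative to shYB1 replicate 1, from ratios of values under 0.08 FPKM, lay between 0.975 and 1.09. Only ratios near 1 were kept for it, so it could not have shown a large difference in depth. FPKM totals lay between 282736 and 295887. YBX1, the targeted gene, was at 366.5, 372.8 and 377.9 FPKM in vector cells and at 166.7, 165.9 and 173.3 FPKM in shYB1 cells, a log2 fold change of -1.14 (SE 0.031, adjusted p = 1.53e-08). The 7 markers of renal tubule epithelium and its carcinoma were all present, with means from 18.1 FPKM upward. In the test described below 1 of them fell (CDH6) and 2 rose, against 6.93% lower and 18.7% higher among all genes tested. The defining markers of leukocytes, endothelium and hepatocytes were all below 1 FPKM, and LUM, at 2.18 FPKM on average, was the only one of 3 fibroblast markers above it. In bulk RNA, fewer cells of a type and less RNA per cell cannot be told apart.

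The Y-box letters were searched in the RefSeq promoters of the family (GRCh38.p14), because YB1 was the protein lowered. A promoter window held the 250 bases before and the 50 bases after an annotated start, and 35 of the 45 members had at least 1 window, 53 in all. CCAAT, read on either strand and so also counted as ATTGG, was found in 12 of the 53 windows (22.6%), against 34.6% of all 35116 windows. By gene, 11 of 35 members (31.4%) had a match, against 39.7% of all genes with a window. The GC box GGGCGG, also read on both strands, was in 47.2% of member windows against 15786 of all 35116, and the TATA sequence TATAAA was in 15.1% against 11.5%. Each motif was counted on its own, and matches that overlap another motif were kept. The 250 bases before the start of the ABCB1 transcript inside the gene (minus strand, chr7:87600885-87601134, within the annotated gene span of chr7:87503633-87713323) are shown because they hold the match closest to a start in this gene. Capitals mark CCAAT or ATTGG. For ABCA2, the member with the highest level and among those that fell, the 250 bases before its downstream start (minus strand, chr9:137028238-137028487) are shown as a stretch without a match, 85.6% of it G or C.
ABCB1: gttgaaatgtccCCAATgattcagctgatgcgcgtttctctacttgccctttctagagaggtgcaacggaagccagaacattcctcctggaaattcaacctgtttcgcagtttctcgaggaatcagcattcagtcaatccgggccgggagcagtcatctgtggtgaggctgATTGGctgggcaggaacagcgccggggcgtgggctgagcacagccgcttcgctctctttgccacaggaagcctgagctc
ABCA2: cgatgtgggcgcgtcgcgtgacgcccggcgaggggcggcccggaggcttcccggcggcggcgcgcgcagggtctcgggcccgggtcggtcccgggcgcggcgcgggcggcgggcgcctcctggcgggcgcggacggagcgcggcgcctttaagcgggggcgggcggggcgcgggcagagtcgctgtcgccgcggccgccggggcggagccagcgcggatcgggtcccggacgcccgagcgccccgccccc

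In ABCB1 the matches began at positions -238 and -79 relative to the start, and the window at the upstream start of the gene had no match. Shorter stretches around the matches in other members tested below are shown so that their flanks can be compared. ABCA12 had 1 match, at -176 of the start within the gene (chr2:215032258-215032262), and none at its other start. ABCA7 had 1 at -55 (chr19:1040052-1040056), ABCB6 had 1 at -73 (chr2:219219027-219219031) and ABCF2 had 1 at -35 (chr7:151227236-151227240). ABCB8, with 3, had more than any other member, at -131, -90 and -52 (the last at chr7:151028398-151028402).
ABCA12: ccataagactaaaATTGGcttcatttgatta
ABCA7: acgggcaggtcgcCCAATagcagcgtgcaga
ABCB6: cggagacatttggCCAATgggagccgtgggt
ABCF2: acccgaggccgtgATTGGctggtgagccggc
ABCB8 at -131: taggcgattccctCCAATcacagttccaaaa
ABCB8 at -90: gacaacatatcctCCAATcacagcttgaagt
ABCB8 at -52: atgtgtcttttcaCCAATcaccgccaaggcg
Of the 4 members that passed the test described below, ABCA12 had a match, ABCA2 and ABCB10 had none, and ABCC3 had no window. A match is only a run of letters, and binding of YB1 was not measured in these data.

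Only part of the family was expressed. The limit set for testing, an average of 1 FPKM or more across all 6 libraries, was reached by 21 of the 45 members: 4 of subfamily A, 5 of B, 5 of C, 3 of D, the single E member, all 3 of F and none of G. Another 7 members, ABCA3, ABCA4, ABCA5, ABCB9, ABCC2, ABCC6 and ABCG2, lay between 0.1 and 1 FPKM. A further 14 were under 0.1 FPKM, and ABCA9, ABCC8 and ABCG8 were listed at 0 in all libraries. Among the near-silent genes were ABCB4, the phosphatidylcholine exporter of bile canaliculi, and ABCB11, the bile salt export pump. ABCG1, a cholesterol exporter, was also at or near 0.

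**Figure D1:**
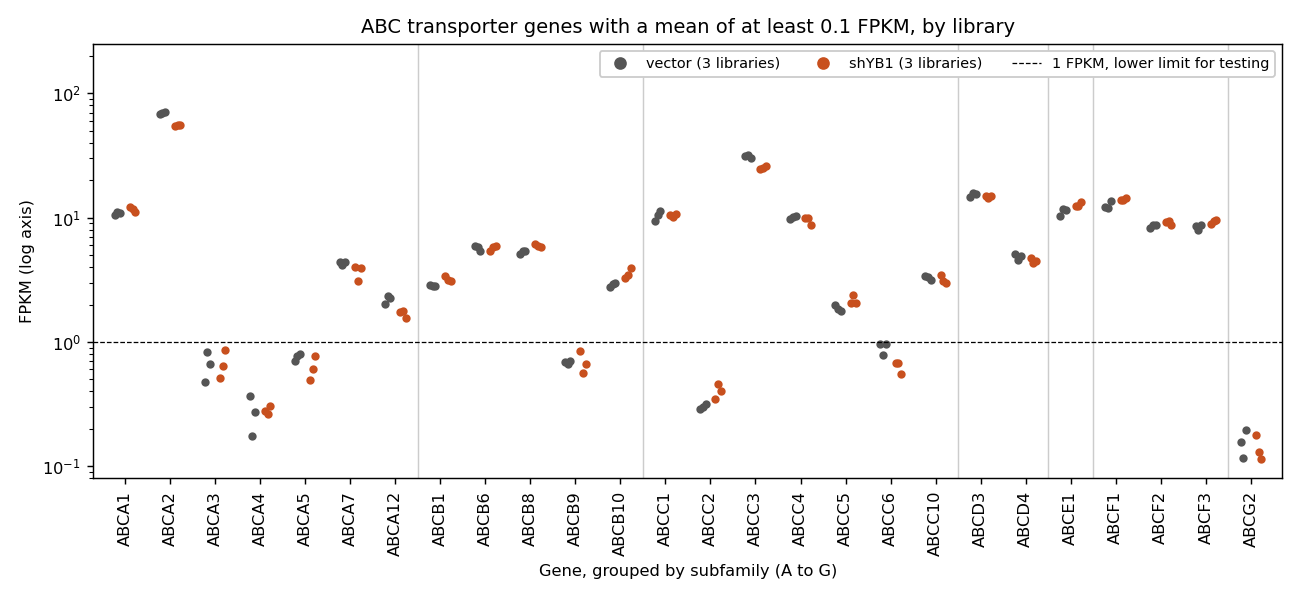
FPKM on a log axis (vertical) of 26 ABC genes averaging 0.1 FPKM or more, ordered by subfamily (horizontal), with 1 point per library (grey, vector; orange, shYB1). ABCA2 sits highest at 55.1 to 71.0 FPKM, followed by ABCC3 at 24.9 to 31.7 FPKM, and the dashed line marks the 1 FPKM limit for testing.

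The family's RNA was dominated by a few genes. Summed over the 45 members, the vector libraries reached 244.9 ± 4.55 FPKM and the shYB1 libraries 229.3 ± 0.304 FPKM (SD, n = 3 each), and each shYB1 library lay below each vector library. ABCA2 alone made up 28.5% of that sum in vector cells and 24.3% in shYB1 cells. ABCC3 made up 12.7% and 11.0%, and no other member exceeded 6.46% in either group.

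By subfamily, the summed FPKM of A was 88.8 ± 1.55 for vector against 74.5 ± 0.329 for shYB1 (SD, n = 3), a ratio of 0.839. Subfamily C went from 58.0 ± 0.640 to 51.7 ± 0.347 FPKM (SD, n = 3), a ratio of 0.892. In both, the 3 shYB1 libraries were below the 3 vector libraries, as deposited and after each of the 3 other scalings tried. Most of the change in A lay in ABCA2 (69.7 to 55.8 FPKM) and most of that in C in ABCC3 (31.1 to 25.3 FPKM). Fold changes were below 0 in 3 and above 0 in 1 of the tested members of A, and below 0 in 3 and above 0 in 2 of those of C. Subfamilies B, E and F had ratios of 1.05, 1.13 and 1.09 with groups that did not overlap as deposited, but those of B overlapped under every other scaling (ratio 1.01 after median-of-ratios rescaling) and those of F under median-of-ratios and quantile scaling. Subfamily D stood at 25.3 ± 0.920 and 24.4 ± 0.835 FPKM (SD, n = 3) with groups that overlapped as deposited (ratio 0.968) but not after median-of-ratios (ratio 0.932) or quantile scaling (ratio 0.930), and G summed to 0.173 and 0.162 FPKM.

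**Figure D2:**
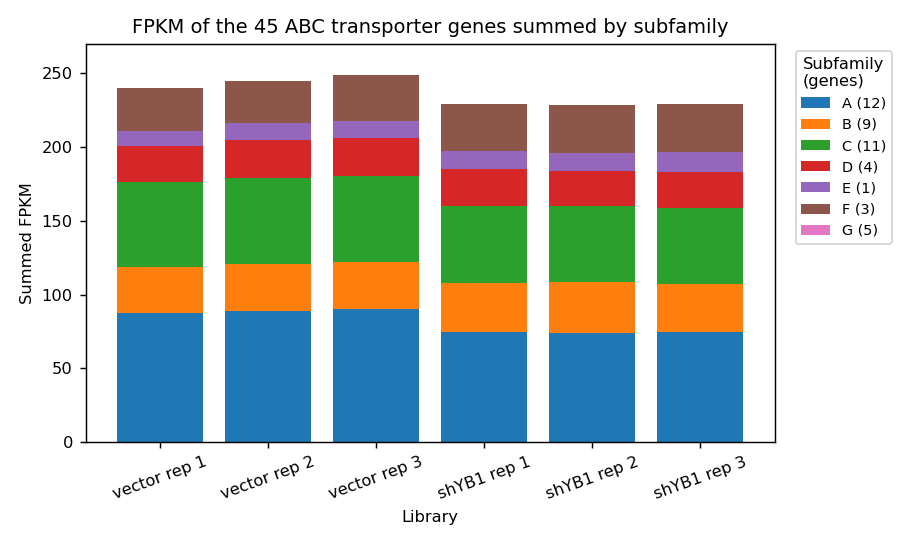
Stacked bars of FPKM summed over the members of each subfamily (vertical, from 0) in each of the 6 libraries (horizontal), with the number of genes of each subfamily in the key. The bars total 240.2 to 249.3 FPKM in vector cells and 228.9 to 229.5 FPKM in shYB1 cells, and the lowest segment, subfamily A, goes from 87.3 to 90.4 FPKM down to 74.2 to 74.8 FPKM.

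Which ABC genes changed when YB1 was lowered was asked with limma on log2(FPKM + 0.1), fitted over all 10439 genes that reached the limit of 1 FPKM. Fold changes are on that log2 scale, shYB1 against vector, and adjusted p is limma's two-sided p after Benjamini-Hochberg adjustment over all genes tested. A gene was called at an adjusted p under 0.05. ABCA2, ABCC3 and ABCA12 fell and ABCB10 rose, and the other 17 tested members did not pass. The members that fell were 3 of 21 (14.3%), against a background of 6.93% of all genes tested. The member that rose was 1 of 21 (4.76%), against a background of 18.7%. The median log2 fold change of the 21 members was 0.02, and that of all genes tested was 0.06.

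The sizes were small. The study's methods give screening limits of a 2-fold change and a p under 0.05, without saying whether p was adjusted. In the limma fit no member passed a 2-fold change with an unadjusted p under 0.05, against 0.22% of all genes tested. With a limit of 1.5-fold none passed either, against 1.14% of all genes, so few would pass at either limit in a family of this size. The count with an unadjusted p under 0.05 was 4 lower (19.0%, against 10.8% of all genes) and 7 higher (33.3%, against 28.2%). In 4 members (19.0%) every shYB1 library was below every vector library, against 12.5% of all genes, and in 8 (38.1%) every shYB1 library was above, against 30.1%. Calls across all genes depended on scaling, with 723 lower and 1956 higher as deposited, and 1253 lower against 1192 higher once libraries were divided by median-of-ratios size factors. After that rescaling ABCA2, ABCC3 and ABCA12 were still the 3 members called lower, against a background of 12.0%, and 0 members were called higher, against 11.4%.

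**Figure D3:**
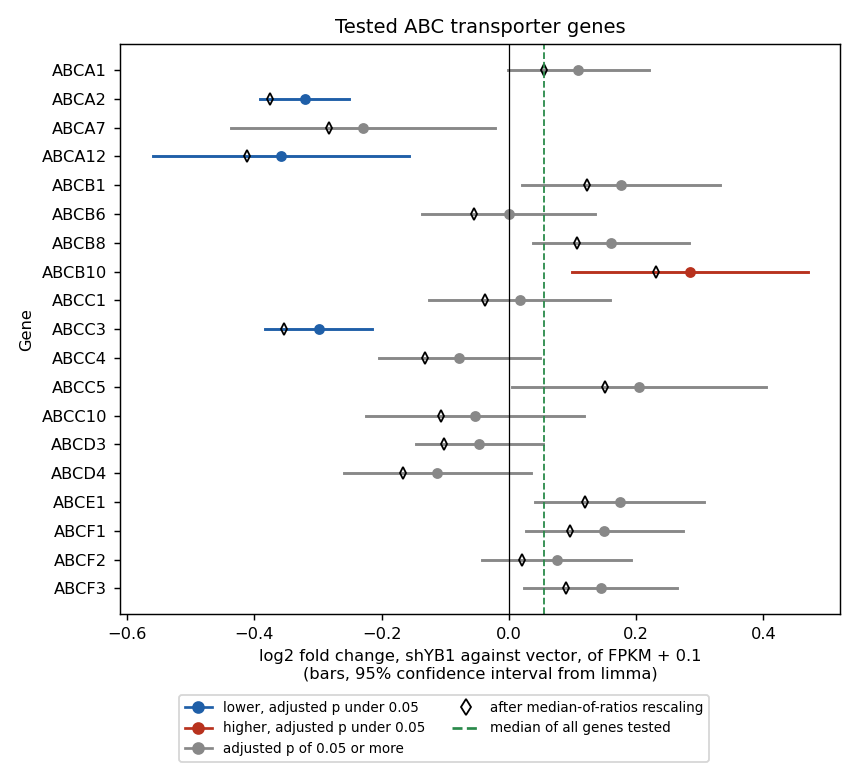
log2 fold change of FPKM + 0.1, shYB1 against vector (horizontal), of 19 tested ABC genes (vertical), with 95% confidence intervals from limma; blue and red points passed the test, open diamonds are values after median-of-ratios rescaling, and the dashed line is the median of all genes tested (0.06). The filled points lie between -0.36 (ABCA12) and 0.28 (ABCB10), and the diamonds reach -0.41 (ABCA12).

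Among the lipid exporters, 4 of 10 members were tested, 2 fell and 0 rose, against 6.93% and 18.7% of all genes, with a median log2 fold change of -0.28 (-0.33 after median-of-ratios rescaling). ABCA2, an endolysosomal transporter known for its role in sterol and sphingolipid handling (chr9:137007227-137028922, minus strand, GENCODE 29), was at 68.9, 69.2 and 71.0 FPKM in vector cells and at 55.1, 56.0 and 56.2 FPKM in shYB1 cells. The groups did not overlap, with means ± SD (n = 3) of 69.7 ± 1.15 and 55.8 ± 0.575 FPKM. On the log2 scale the change was -0.32 (SE 0.031, adjusted p = 9.2e-05), and ABCA2 passed under all 15 alternative settings.

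ABCA12, the keratinocyte lipid transporter mutated in harlequin ichthyosis (chr2:214931542-215138428, minus strand), was at 2.03, 2.33 and 2.24 FPKM in vector cells and at 1.75, 1.76 and 1.56 FPKM in shYB1 cells. Its level was far below that of ABCA2, and its groups did not overlap. The log2 fold change was -0.36 (SE 0.091, adjusted p = 0.0163). The call was lost without vector replicate 2 (adjusted p = 0.0565) and without shYB1 replicate 3 (adjusted p = 0.0549).

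ABCA7, a phospholipid exporter related to ABCA1, was at 4.36, 4.19 and 4.39 FPKM in vector cells and at 3.99, 3.11 and 3.97 FPKM in shYB1 cells. The groups did not overlap, but shYB1 replicate 2 was well below the other libraries of its group, and the log2 fold change of -0.23 (SE 0.093) had an adjusted p of 0.0977. Without shYB1 replicate 2 it was -0.11 (adjusted p = 0.304). ABCA7 passed under 1 of 14 alternatives (adjusted p = 0.0476), and its fold change was below 0 under each of them. ABCA1, which loads cholesterol onto apolipoprotein A-I, had a log2 fold change of 0.11 with an adjusted p of 0.132. It was at 10.5, 11.1 and 11.0 FPKM in vector cells and at 12.2, 11.8 and 11.2 FPKM in shYB1 cells. ABCA3, the surfactant lipid transporter, was between 0.474 and 0.867 FPKM with overlapping groups.

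The drug efflux pumps were described singly. Of the 5 that were tested ABCC3 fell and none rose, against 6.93% lower and 18.7% higher among all genes tested. ABCB1 and ABCC5 were higher with an unadjusted p under 0.05, as were 28.2% of all genes tested. The summed FPKM of the 7 pumps was 56.7 ± 0.688 for vector against 51.2 ± 0.253 for shYB1 (SD, n = 3), a ratio of 0.903. The drop of ABCC3 alone was larger than that of the sum. ABCC3 (MRP3), a basolateral pump for glucuronides and other conjugated organic anions (chr17:50634777-50692252, plus strand), was at 31.5, 31.7 and 30.2 FPKM in vector cells and at 24.9, 25.2 and 25.9 FPKM in shYB1 cells. The groups were well apart, with means ± SD (n = 3) of 31.1 ± 0.816 and 25.3 ± 0.515 FPKM. The log2 fold change came to -0.30 (SE 0.038, adjusted p = 0.000435), and ABCC3 passed under all 15 alternatives.

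ABCB1, the P-glycoprotein gene, was at 2.86, 2.83 and 2.80 FPKM in vector cells and at 3.39, 3.18 and 3.06 FPKM in shYB1 cells. Every shYB1 library was above every vector library. The log2 fold change was 0.18 (SE 0.070, 95% confidence interval 0.02 to 0.33), and it did not pass with an adjusted p of 0.0916. The exact permutation test, two-sided, gave p = 0.1, the smallest that 3 against 3 libraries allow. ABCB1 passed under 1 of 14 alternatives, a variance prior without trend (adjusted p = 0.0448), and its fold change was above 0 under each of them. Its neighbour ABCB4, 23.2 kb away on the same strand and sharing 2.02% of the 50-base words of ABCB1, was at most 0.0211 FPKM in any library.

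ABCC1 (MRP1), which exports glutathione conjugates, was at 9.41, 10.4 and 11.2 FPKM in vector cells and at 10.6, 10.2 and 10.6 FPKM in shYB1 cells. The shYB1 values lay inside the range of the vector values. The log2 fold change was 0.02 (SE 0.064, 95% confidence interval -0.13 to 0.16, adjusted p = 0.875), and its sign turned under median-of-ratios rescaling (-0.04), quantile normalization (-0.04) and without vector replicate 1 (-0.05).

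ABCC4 (MRP4), a pump for cyclic nucleotides and prostaglandins, was at 9.84, 10.1 and 10.2 FPKM in vector cells and at 9.97, 9.87 and 8.81 FPKM in shYB1 cells. The groups overlapped, with only shYB1 replicate 3 low, and the log2 fold change was -0.08 (SE 0.057, 95% confidence interval -0.20 to 0.05, adjusted p = 0.347). ABCC5 (MRP5), which also exports cyclic nucleotides, was at 1.97, 1.83 and 1.78 FPKM in vector cells and at 2.07, 2.37 and 2.04 FPKM in shYB1 cells. The groups of ABCC5 were close but did not overlap, and the log2 fold change was 0.20 (SE 0.090, 95% confidence interval 0.01 to 0.40, adjusted p = 0.12).

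The remaining pumps were below the limit for testing, and with no filter neither passed (adjusted p = 0.179 for ABCC2 and 0.788 for ABCG2). ABCC2 (MRP2), the apical pump for bilirubin glucuronide and drug conjugates, was at 0.289, 0.301 and 0.319 FPKM in vector cells and at 0.350, 0.462 and 0.401 FPKM in shYB1 cells, with no overlap. ABCG2 (breast cancer resistance protein) was at 0.155, 0.117 and 0.197 FPKM in vector cells and at 0.178, 0.130 and 0.114 FPKM in shYB1 cells, with overlapping groups. In order of level in vector cells the pumps ran ABCC3, ABCC1, ABCC4, ABCB1, ABCC5, ABCC2 and ABCG2, and ABCC1 (10.4 ± 0.915 FPKM, SD, n = 3) and ABCC4 (10.1 ± 0.211 FPKM, SD, n = 3) did not differ beyond their spread.

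**Figure D4:**
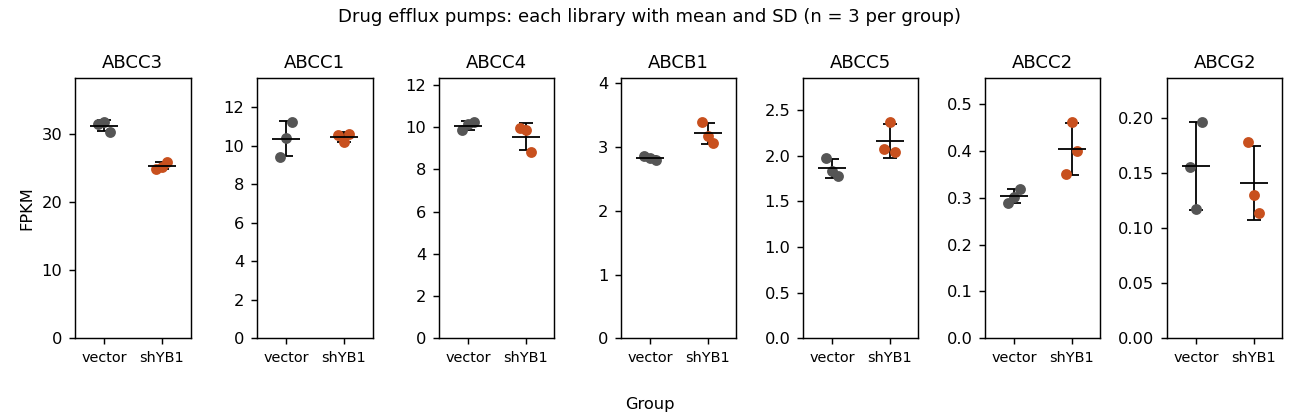
FPKM (vertical, each panel from 0 on its own scale) of the 7 drug efflux pump genes in vector and shYB1 cells, with 1 point per library and the mean ± SD (n = 3 per group) as bars. The shYB1 points of ABCC3 lie below and those of ABCB1, ABCC5 and ABCC2 lie above the vector points, while the points of ABCC1, ABCC4 and ABCG2 overlap.

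Other members of subfamily C gave no call. ABCC10 (MRP7) had a log2 fold change of -0.05 with an adjusted p of 0.645. ABCC6, mutated in pseudoxanthoma elasticum and known for ATP release, was at 0.963, 0.780 and 0.956 FPKM in vector cells and at 0.683, 0.682 and 0.553 FPKM in shYB1 cells, just under the limit for testing. Its groups did not overlap, but 18.1% of its 50-base words also occur in other genes, most of them in the pseudogene ABCC6P1, so its level is uncertain. ABCC6 lies 5.9 kb from ABCC1 on the opposite strand.

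Among the 3 mitochondrial transporters of subfamily B, ABCB10 rose and none fell, against 18.7% higher and 6.93% lower among all genes tested. ABCB10, an inner-membrane transporter required for haem synthesis in red cell precursors (chr1:229516582-229558695, minus strand), was at 2.75, 2.93 and 2.99 FPKM in vector cells and at 3.26, 3.45 and 3.94 FPKM in shYB1 cells. The groups did not overlap, and shYB1 replicate 3 was the highest library. The log2 fold change was 0.28 (SE 0.083, adjusted p = 0.0305). The call held under 7 of 14 alternatives, and it was lost after median-of-ratios rescaling (adjusted p = 0.0672), after quantile normalization (0.062), with no filter (0.0626) and without vector replicate 1 (0.0967), vector replicate 2 (0.0604), shYB1 replicate 2 (0.0619) or shYB1 replicate 3 (0.102), the fold change staying above 0 in each.

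ABCB8, a mitochondrial transporter linked to iron export, had 3 CCAAT matches in its promoter window. It was at 5.13, 5.43 and 5.38 FPKM in vector cells and at 6.13, 5.90 and 5.83 FPKM in shYB1 cells, without overlap. Its log2 fold change of 0.16 (SE 0.055) had an adjusted p of 0.0558, and it passed under 2 of 15 alternatives. ABCB6, a porphyrin transporter, was at 5.70 ± 0.273 and 5.70 ± 0.253 FPKM (SD, n = 3) with an adjusted p of 0.997, but 54.7% of its exonic bases overlap an annotated gene on the same strand, which can share its fragments.

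In subfamily D none of the 3 tested members passed. ABCD3 (PMP70), a major protein of the peroxisomal membrane, averaged 15.3 ± 0.608 FPKM without and 14.8 ± 0.240 FPKM with the knockdown (SD, n = 3), with a log2 fold change of -0.05. ABCD4, the lysosomal partner in cobalamin export, had a log2 fold change of -0.11 with an adjusted p of 0.238. ABCD2 was at 0 in 5 of 6 libraries.

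None of the 4 ribosome-bound members was called as reported. ABCE1 and ABCF1 each passed under 3 of 15 alternatives, and ABCF2 and ABCF3 under 0 of 15. The log2 fold changes of all 4 were above 0, as were 64.1% of those of all genes tested. ABCE1, which splits ribosomes after termination, was at 10.3, 11.7 and 11.6 FPKM in vector cells and at 12.3, 12.3 and 13.3 FPKM in shYB1 cells. Its groups did not overlap, and the log2 fold change of 0.17 (SE 0.060) had an adjusted p of 0.0558. ABCF1, which takes part in translation initiation, had a log2 fold change of 0.15 (adjusted p = 0.0705), ABCF3, a relative of yeast GCN20, had 0.14 (adjusted p = 0.0755) and ABCF2 had 0.07 (adjusted p = 0.324). The median of the 4 was 0.15 as deposited and 0.09 after median-of-ratios rescaling, and for ABCF2 45.8% of the exonic bases overlap a gene on the same strand.

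**Figure D5:**
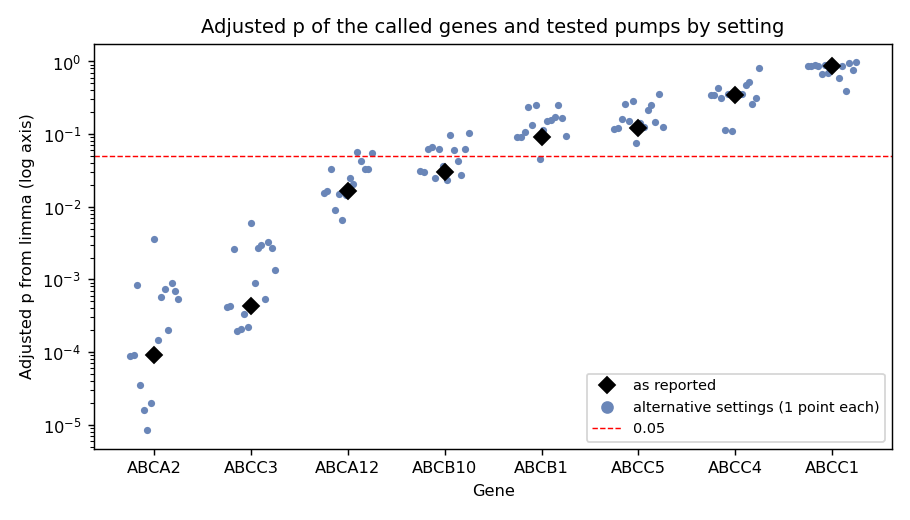
Adjusted p from limma (vertical, log axis) of the 4 called ABC genes and the other 4 tested drug pumps (horizontal) as reported (black diamonds) and under each alternative setting (blue points), with 0.05 as a dashed line. ABCA2 and ABCC3 stay below the line throughout, ABCA12 crosses it in 2 settings, ABCB10 lies below it in 7 of 14, and ABCB1 dips below it once.

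Genes outside the symbol rule were counted from lists, first other ABC family genes and then genes that act with ABC proteins. TAP2, a subunit of the ABC peptide transporter of antigen presentation, rose with a log2 fold change of 0.20 (adjusted p = 0.021; 0.080 after median-of-ratios rescaling), whereas its partner TAP1 had -0.04 (adjusted p = 0.553). Of 12 transcription factors known to control ABC genes, 9 were tested, 5 fell and none rose, against 6.93% lower and 18.7% higher among all genes, with a median log2 fold change of -0.12. They were HIF1A (-0.47), SREBF2 (-0.21), AHR (-0.18), SREBF1 (-0.17) and NFE2L2 (-0.12). EPAS1, the other HIF gene of the list, had -0.08 and was not called (adjusted p = 0.0798; 0.00858 after median-of-ratios rescaling). These are RNA levels, and the activity of these factors was not measured. NR1I2 (PXR), the xenobiotic receptor that drives ABCB1 in liver, was listed at 0 in all libraries.

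Of 12 partner genes, 8 were tested, 1 fell and 2 rose, against 6.93% lower and 18.7% higher among all genes. LMBRD1, the lysosomal cobalamin exporter that works with ABCD4, fell with a log2 fold change of -0.24. ETF1, the release factor that precedes ABCE1 on the ribosome, and GCN1, an activator of GCN2, rose with values of 0.26 and 0.21. Of the 4 glutathione and vault genes, 3 were tested, and the same shares over all genes apply. MVP, the major vault protein, fell (-0.21) and GCLM, a subunit of the enzyme that starts glutathione synthesis, rose (0.28). GSTP1 averaged below the limit for testing (vector 1.43, 1.44 and 1.45 FPKM, shYB1 0, 0.412 and 0.616 FPKM).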

How the data were processed

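RNA of 3 shYB1 and 3 vector libraries of 786-O cells was analysed. The authors deposited FPKM per gene and library. The submitters' processing notes name Trimmomatic, HISAT2, Cufflinks, HTSeq, DESeq and GRCh38, and versions, strandedness, filters and annotation are not given in the sources used here. Reads shared by overlapping or near-identical genes could be assigned to either. All 6 columns were used, and 0 were left out. Depth is unknown, since no counts were used.

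Genes averaging 1 FPKM or more (10439) were compared on log2(FPKM + 0.1) with limma 3.58.1 in R 4.3.3 (trend and robust prior, two-sided, Benjamini-Hochberg). Python 3.11.15, NumPy 2.4.6, pandas 2.3.3 and matplotlib 3.10.9 served the rest. The step was tested on simulated data. Positions are from GENCODE 29 (45 members matched by symbol), and promoters from RefSeq (35 matched). Shared sequence was measured as 50-base words of the annotated transcripts. Every member was counted, with full statistics for called members and the 7 drug pumps and values only for members below the filter; results for some members and markers are not reported here. Members, lists and rules were chosen with earlier results of these data known. Alternatives were other pseudocounts, filters, scalings, a prior without trend, a replicate block and leaving out each library. A 3 against 3 exact permutation test cannot go below 0.1.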

Additional observations from a re-analysis of the deposited data

How the results depend on the processing

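The counts of lower members were within 1.5 times of 3 under every alternative, and ABCA2 and ABCC3 were called in each. The count of higher members, 1 as reported, was 0 with no filter, with median-of-ratios size factors and with quantile normalization, 2 at a mean of at least 5 FPKM, and 3 when rescaled to a common total or with a variance prior without trend. With a library left out it ranged from 0 to 2. Higher drug pumps numbered 1, ABCB1, without the trend, and 0 otherwise. Over all genes, 1253 were lower and 1192 higher with median-of-ratios size factors, and 1184 and 1267 with quantile normalization, against 723 and 1956. ABCC1 turned to -0.038 and -0.0362 in these, and ranged from -0.0498 to 0.077 with a library left out. Of 116 single-gene values under alternatives, 103 kept direction and side of the threshold. The causes were not tested.

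Correlations of deviations from the group means gave no sign that the replicate numbers pair the libraries. Same-numbered libraries had -0.169, -0.059 and -0.00824, against -0.0507 to 0.113 for other pairs, and no vector library correlated best with its own number. The deviations of a group sum to 0, so these values depend on one another and cannot exclude a pairing. With the replicate block, 3 members were higher (ABCB10, ABCE1 and ABCF1) and 3 lower. FPKM without counts give no limit for genes near 0, and the members below 1 FPKM entered only the fit with no filter, where none was called (lowest adjusted p 0.0683, ABCC6).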
